A study of Mus musculus with 4 samples.

Results

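The cytochrome P450 genes of families 1 to 4 were followed in the liver of WT and DDI2-KO mice. Members were chosen by name alone, as the protein-coding genes whose mouse symbol is Cyp, a digit from 1 to 4 and then directly a letter, and this rule found 81 genes in 22 subfamilies among 48709 gene identifiers, of which 21695 were protein-coding. No read was counted on 14 of the 81 genes in any library. Another 9 genes had at most 12 reads in a library and were not kept by the filter on low counts, and 58 genes in 18 subfamilies were tested. A count over these 58 is therefore not a count over the whole family, since a gene read in only 1 genotype could enter through that genotype alone.

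Liver RNA of untreated C57BL/6 mice was sequenced as 4 stranded mRNA libraries, 2 from WT mice and 2 from DDI2-KO mice. DDI2-KO mice carried floxed Ddi2 on both chromosomes together with a Cre recombinase transgene under the albumin promoter, which is active in hepatocytes. The paper calls the deletion liver-specific, and its extent in other liver cells was not measured here. WT mice were littermates with the floxed alleles and no Cre, so a control with Cre and no floxed allele was not part of the comparison. Reads counted on genes numbered 22501208 to 34109018 per library, and the 81 P450 genes took from 2.495% to 3.23% of them.

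The whole-gene count of Ddi2, an aspartic protease, could not check the genotype, since a count over the whole gene need not show the loss of a part of it. Its mean level in CPM, the counts scaled to a common library size by the TMM method, was 132 ± 12.6 in WT against 161 ± 5.09 in DDI2-KO (SD, n = 2 each). Liver P450 genes differ between the sexes in mice, and the labels give no sex. The Y-linked genes Ddx3y, Eif2s3y, Kdm5d and Uty had 0 reads in each of the 4 libraries. By these genes, no library came from a male mouse. Xist, the transcript of the inactive X chromosome, was counted 17484 and 11533 times in WT against 1230 and 3288 in DDI2-KO. Mitochondrial transcripts took 10.5% and 9.91% of the gene reads in WT and 5.27% and 6.34% in DDI2-KO, and the part of these library differences in the values below was not tested.

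Cytochromes P450 are heme enzymes that insert oxygen into lipophilic molecules with electrons from P450 oxidoreductase, the product of Por. Families 1 to 3 handle drugs, toxins, steroids and polyunsaturated fatty acids, and family 4 hydroxylates the ends of fatty acids and eicosanoids. In mouse liver many of them are induced by nuclear receptors, are expressed mainly around the central vein, or are set by the sex pattern of growth hormone, and the genes of a subfamily usually lie side by side in a cluster.

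Most of the family did not pass the test, and the 5 genes that did came from 4 subfamilies and moved in both directions. Cyp2a22 and Cyp2d9 rose in DDI2-KO, and Cyp2c23, Cyp2c54 and Cyp4a32 fell. The 5 called genes were 8.62% of the 58 tested P450 genes, against 2.53% of all 13699 tested genes, by edgeR's quasi-likelihood test at an adjusted p under 0.05. By direction, the 2 that rose were 3.45% of the P450 genes against 1.33% of all tested genes, and the 3 that fell were 5.17% against 1.20%. In tissue RNA, fewer cells of a type and less RNA per cell cannot be told apart.

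The family's median log2 change was -0.09 against -0.01 for all tested genes, with 25 genes above 0 and 33 below. Both DDI2-KO libraries lay above both WT libraries for 9 P450 genes, or 15.5%, against 28.0% of all tested genes. Both lay below for 17, or 29.3%, against 27.7%, and the groups overlapped for the other 32. An unadjusted p under 0.05 was reached by 16 P450 genes, or 27.6%, against 23.5% of all tested genes.

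The number of calls depended on the tool. DESeq2 called 12 P450 genes, or 20.7%, against 6.80% of all tested genes, and limma-voom called 3, or 5.17%, against 0.993%. Only 1 gene, Cyp2c23, was called in all 16 alternatives tried, which were 12 other fits and the 4 fits that each left out a library. In the plot of fold changes, the genes outside the 5 called spread around 0, and the bars are widest for the Cyp3a16, Cyp3a41a, Cyp3a41b and Cyp3a44 genes. The genes named below are the called ones, the most highly expressed member of each subfamily per kilobase, and those with a log2 change of at least 1 and groups that do not overlap. Any other gene named with values was chosen after its values were seen.

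**Figure D1:**
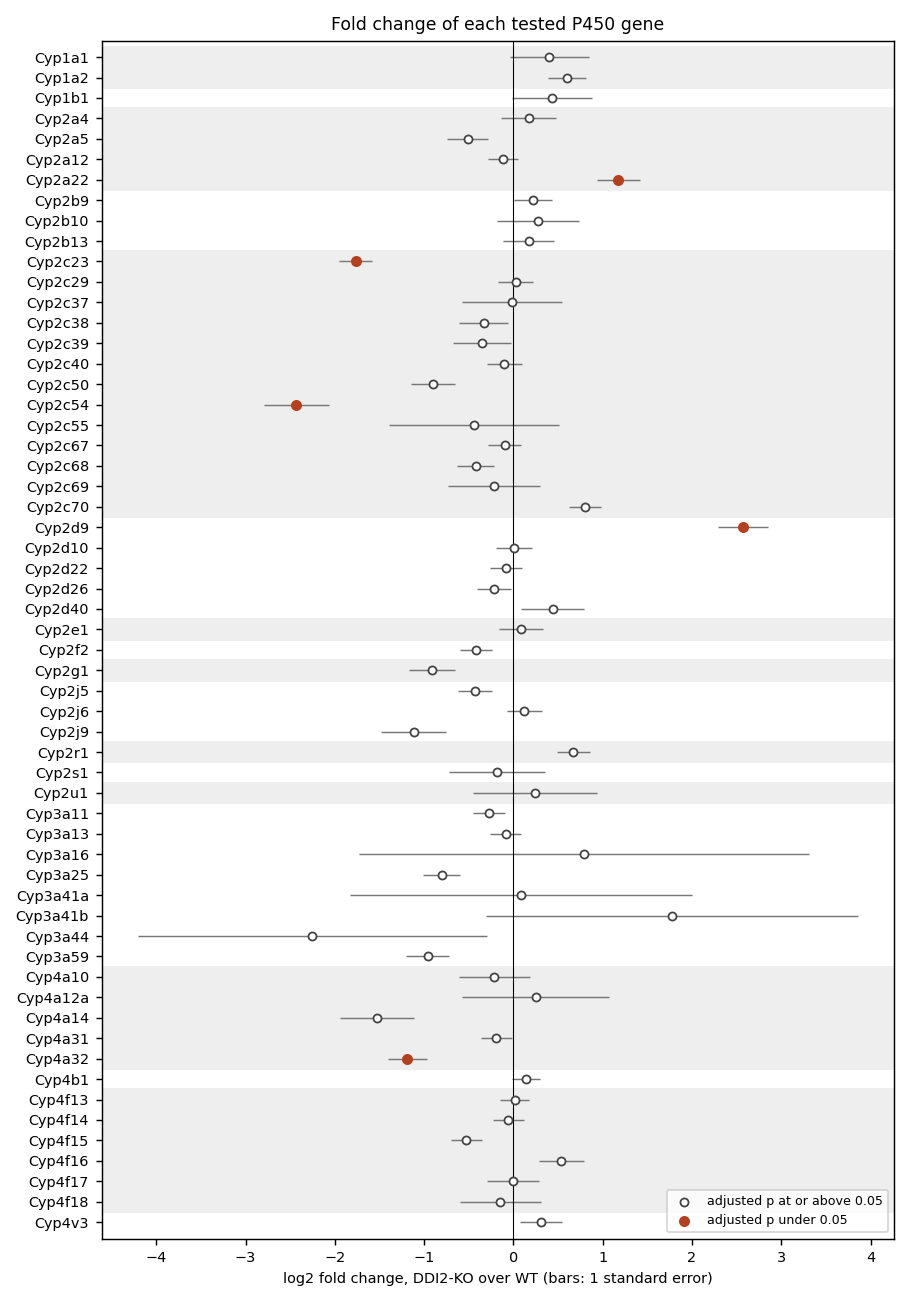
The log2 change of DDI2-KO over WT (horizontal axis) for each of the 58 tested P450 genes, ordered by subfamily in alternating bands, with bars of 1 standard error (SE) and filled points for an adjusted p under 0.05. Filled points stand at 2.57 for Cyp2d9, 1.18 for Cyp2a22, -1.19 for Cyp4a32, -1.77 for Cyp2c23 and -2.43 for Cyp2c54.

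The P450 reads were spread unevenly over the genes. Cyp2e1, which oxidises ethanol and acetaminophen, and Cyp3a11, a broad drug oxidase, together took from 39.2% to 43.0% of the P450 reads of a library. Per kilobase of the longest annotated transcript, Cyp2e1 stood first with a mean of 4017 CPM per kb over the 4 libraries, Cyp3a11 next with 1447, followed by Cyp2c69 with 737 and Cyp2a4 with 649. The first 2 were apart from each other and from the rest in every library. Cyp2c69 and Cyp2a4 changed places between libraries, with 1181 and 406 CPM per kb for Cyp2c69 in WT against 408 and 813 for Cyp2a4, so their order is not settled. Levels per kilobase below are ranked by the mean over the 4 libraries.

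The shares of the P450 reads overlapped between the genotypes for the large Cyp2c and Cyp3a subfamilies. Cyp2c took 26.8% and 22.4% of the summed P450 CPM in WT and 22.0% and 23.9% in DDI2-KO, and Cyp3a took 16.3% and 22.6% against 16.4% and 17.2%. Cyp1a took 1.55% and 1.41% in WT and 2.51% and 2.36% in DDI2-KO, while Cyp4a took 4.61% and 2.63% against 2.08% and 2.63%. The Cyp1a shares did not overlap between the genotypes, and WT replicate 1 alone stood apart in Cyp4a. The shares were also higher in both DDI2-KO libraries for Cyp1b, Cyp2b, Cyp2d, Cyp2r, Cyp4b and Cyp4v. They were lower for Cyp2g and Cyp2j, and none of these shares was tested. Cyp1b, Cyp2g, Cyp2r, Cyp4b and Cyp4v hold 1 gene each. In Cyp2d only Cyp2d9 of the 5 tested genes separated by level, and in Cyp2b all 3 tested genes overlapped. Among all tested genes, 28.0% lay above in level and 27.7% below, so such separations were common. WT replicate 1 also had the highest summed P450 level, at 32811 CPM, and WT replicate 2 the lowest, at 25464 CPM, with DDI2-KO between them at 27406 and 26626 CPM.

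**Figure D2:**
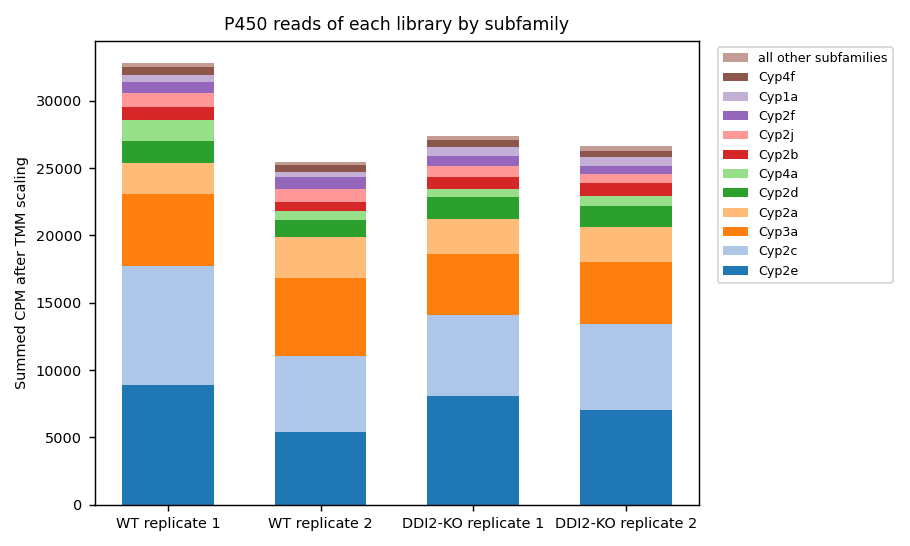
Summed CPM after TMM scaling (vertical axis) of the P450 genes in each of the 4 libraries, stacked by subfamily. Cyp2e, Cyp2c and Cyp3a fill most of every bar, and the total is highest in WT replicate 1 (32811 CPM) and lowest in WT replicate 2 (25464 CPM).

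**Figure D3:**
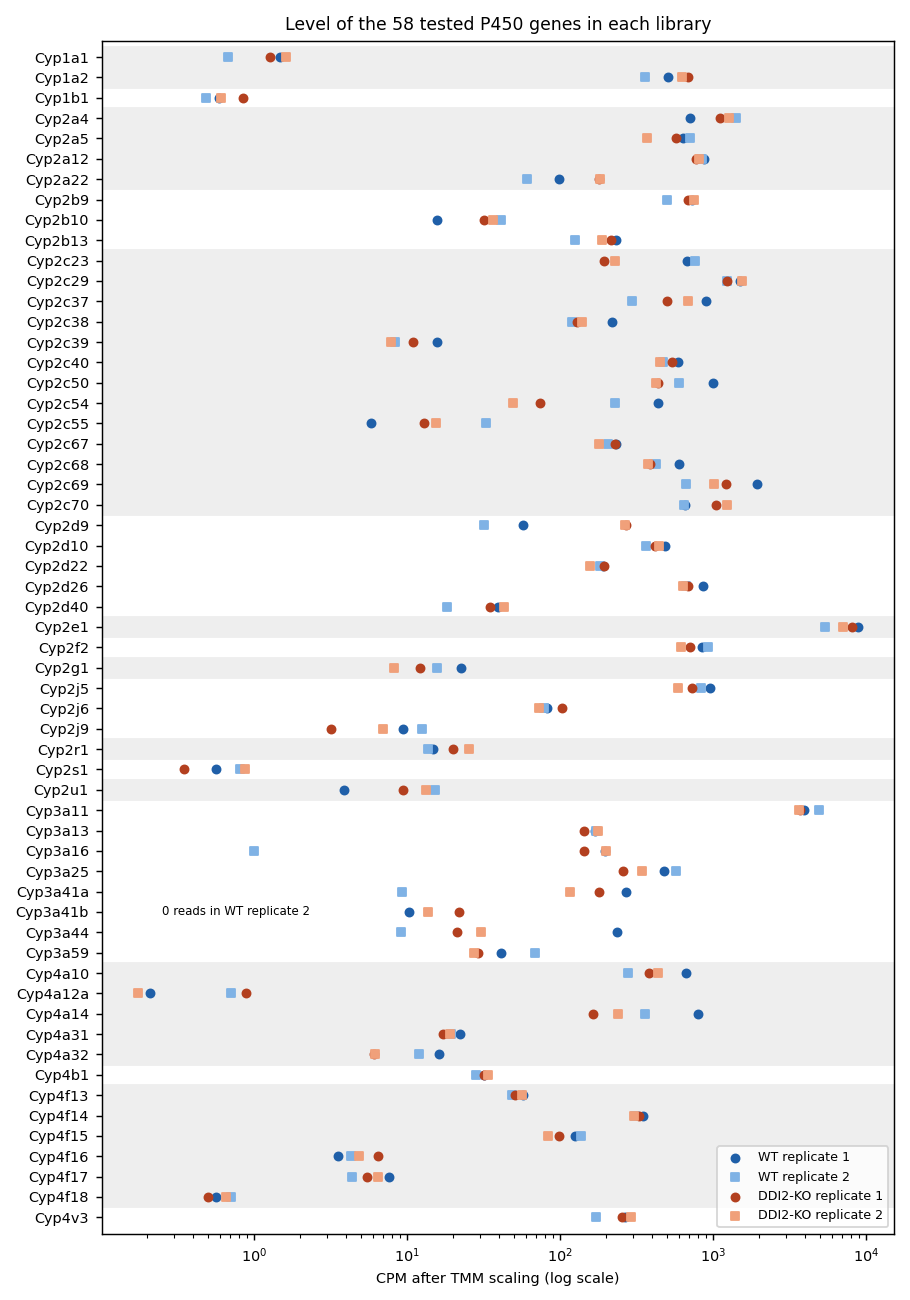
Level of each of the 58 tested P450 genes (CPM after TMM scaling, log axis) in each library, with blue points for WT and red or orange points for DDI2-KO, and bands for subfamilies. Cyp2e1 and Cyp3a11 lie farthest right, the WT and DDI2-KO points separate for Cyp2c23 and Cyp2d9, and WT replicate 2 lies far left of the other libraries for Cyp3a16 and Cyp3a41a.

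Family 1 holds the aryl hydrocarbon receptor targets. Cyp1a2, which oxidises caffeine and aromatic amines, had 508 and 359 CPM in WT and 687 and 626 CPM in DDI2-KO. Both DDI2-KO libraries were above both WT libraries, but the log2 change of 0.60 (SE 0.21) did not pass the test (edgeR adjusted p = 0.143). Cyp1b1, an estrogen hydroxylase found mainly outside the liver, had at most 0.850 CPM in any library, and its log2 change of 0.43 (SE 0.45) did not pass.

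Of the 4 tested Cyp2a genes, 1 rose and 3 did not pass the test. Cyp2a22 (ENSMUSG00000091867), on the minus strand of chromosome 7 at chr7:26931631-26939384 in GRCm38, had 99.1 and 60.9 CPM in WT and 179.6 and 182 CPM in DDI2-KO. Both DDI2-KO libraries were above both WT libraries and close to each other. The log2 change was 1.18 (SE 0.24, edgeR adjusted p = 0.0472), or 2.26-fold higher. The call was close to the threshold, since 5 of the 12 other fits gave an adjusted p above 0.05, up to 0.0626, and so did leaving out WT replicate 2 (0.162), DDI2-KO replicate 1 (0.130) or DDI2-KO replicate 2 (0.130).

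Its neighbour Cyp2a12, a steroid and bile acid hydroxylase chosen for comparison after its values were seen, had 868 and 849.6 CPM in WT and 775 and 814 CPM in DDI2-KO, a log2 change of -0.11 (SE 0.17). Of the stretches of 50 bases in Cyp2a22 transcripts, 20.5% also occur in another gene, mostly Cyp2a12, and reads matching both genes alike were left out of both counts. Cyp2a4, a steroid hydroxylase and the most abundant member per kilobase, had 709.7 and 1413 CPM in WT and 1121 and 1269 CPM in DDI2-KO, so both DDI2-KO libraries fell between the WT libraries.

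The RefSeq windows before the starts of Cyp2a22 and Cyp2a12 are shown because the first gene was called and the second was not, while these letters are nearly alike. The difference between the genes was not tested. Each line gives the 250 bases before the annotated start, 5′ to 3′ along the gene in GRCm38.p6, with the TATA box letters TATAAA in capitals. The Cyp2a22 window is chr7:26939387-26939636 on the minus strand and the Cyp2a12 window is chr7:27028840-27029089 on the plus strand.
Cyp2a22: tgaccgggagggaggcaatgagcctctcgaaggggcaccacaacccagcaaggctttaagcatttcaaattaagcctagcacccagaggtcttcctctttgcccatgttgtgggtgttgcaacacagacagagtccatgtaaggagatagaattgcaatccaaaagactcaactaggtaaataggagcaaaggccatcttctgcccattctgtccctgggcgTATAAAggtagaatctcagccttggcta
Cyp2a12: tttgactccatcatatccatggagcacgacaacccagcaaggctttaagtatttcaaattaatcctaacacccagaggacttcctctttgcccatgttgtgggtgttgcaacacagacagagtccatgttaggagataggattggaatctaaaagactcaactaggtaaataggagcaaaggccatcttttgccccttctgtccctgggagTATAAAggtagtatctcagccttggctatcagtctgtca
Over the 232 aligned positions where both windows had a base, 213, or 91.8%, were identical. The TATA box began 28 bases before the annotated start of Cyp2a22 and 39 bases before that of Cyp2a12.

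The 3 tested Cyp2b genes, which are targets of the receptor CAR or sex-biased, did not pass the test. Cyp2b9, the most abundant per kilobase, had 734 and 503 CPM in WT and 689 and 749 CPM in DDI2-KO. Its groups overlapped, as did those of Cyp2b10 and Cyp2b13.

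The Cyp2c subfamily, mostly epoxygenases and hydroxylases of polyunsaturated fatty acids, had 13 tested genes, of which 2 fell, none rose and 11 did not pass the test. Its median log2 change was -0.33, with 2 genes above 0 and 11 below, while 48.7% of all tested genes were above 0. The groups overlapped for 8 of the 13. Among the genes below 0, Cyp2c37, Cyp2c38, Cyp2c39, Cyp2c40, Cyp2c55, Cyp2c67 and Cyp2c69 turned above 0 when a library was left out. Cluster genes also share sequence, as with 72.1% of the 50-base stretches of Cyp2c40, so these signs are not independent. Cyp2c23 (ENSMUSG00000025197, chr19:44005022-44029208, minus strand), an arachidonic acid epoxygenase also known as Cyp2c44, lies 3.82 Mb beyond the cluster of the other 14 Cyp2c genes.

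Cyp2c23 was counted with 22937 and 23604 reads in WT against 5036 and 5287 in DDI2-KO. After scaling this was 682 and 764 CPM in WT and 195 and 230.1 CPM in DDI2-KO, so that both DDI2-KO libraries were below both WT libraries by far more than the replicates differed. The log2 change was -1.77 (SE 0.19, edgeR adjusted p = 0.0125), or 3.41-fold lower, and the highest adjusted p in any alternative was 0.0468. Of its 50-base stretches, 0% occur in another annotated gene, so its count does not depend on how reads of similar genes are split.

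Cyp2c54 (ENSMUSG00000067225, chr19:40037940-40073827, minus strand) lies inside the cluster beside Cyp2c50. It was counted with 14821 and 7029 reads in WT against 1922 and 1138 in DDI2-KO, or 441 and 228 CPM against 74.3 and 49.5 CPM. Both DDI2-KO libraries were lower, although the WT libraries differed from each other. The log2 change was -2.43 (SE 0.36, edgeR adjusted p = 0.0362), or 5.40-fold lower. It was not called with offsets for GC content and transcript length (adjusted p = 0.0635) or without DDI2-KO replicate 1 (0.105) or 2 (0.126), and 25.7% of its 50-base stretches are shared, mostly with Cyp2c50.

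The neighbours of Cyp2c54 did not pass the test. Cyp2c50 had 999.8 and 603 CPM in WT and 435 and 423 CPM in DDI2-KO, a log2 change of -0.90 (SE 0.25, adjusted p = 0.0869). Cyp2c70, which makes the muricholic acids of mouse bile, had 661 and 646 CPM in WT and 1048 and 1236 CPM in DDI2-KO, a log2 change of 0.81 (SE 0.18, adjusted p = 0.0559). For both genes the groups did not overlap, and DESeq2 called both (adjusted p = 0.00931 and 0.00149), as did the fit without a filter on low counts. Cyp2c70 also passed with offsets for GC content and length (adjusted p = 0.0314). Leaving out WT replicate 2 brought Cyp2c50 past the threshold (adjusted p = 0.0436).

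Cyp2c69, the first Cyp2c gene by the mean level per kilobase, was first in WT replicate 1 and DDI2-KO replicate 1, while Cyp2c29 was first in WT replicate 2 and Cyp2c70 in DDI2-KO replicate 2. Cyp2c69 had 1943 and 668 CPM in WT and 1220 and 1021 CPM in DDI2-KO. Its DDI2-KO libraries lay between the WT libraries, and 54.8% of its 50-base stretches are shared with other genes. The same held for Cyp2c37, with 907 and 298 CPM in WT and 499.7 and 691 CPM in DDI2-KO. Cyp2c55 had 5.80 and 32.9 CPM in WT and 12.9 and 15.5 CPM in DDI2-KO, so here WT replicate 2 was the highest library.

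Of the 5 tested Cyp2d genes, 1 rose and 4 did not pass the test. Cyp2d9 (ENSMUSG00000068086, chr15:82433437-82456845, plus strand), a testosterone hydroxylase and a classical male-biased P450, was counted with 1937 and 989 reads in WT against 6949 and 6078 in DDI2-KO. After scaling this was 57.6 and 32.0 CPM in WT and 268 and 264 CPM in DDI2-KO, and the DDI2-KO libraries were close to each other and well above both WT libraries. The log2 change was 2.57 (SE 0.28, edgeR adjusted p = 0.0166), or 5.94-fold higher, the largest rise among the tested P450 genes.

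Cyp2d9 was called in all 12 fits that kept the 4 libraries, and it was not called without DDI2-KO replicate 1 (adjusted p = 0.0822) or 2 (0.0727). Of its 50-base stretches, 29.0% are shared, mostly with Cyp2d12, and an annotated predicted RNA, Gm27622, overlaps it on the same strand. Cyp2d26, the most abundant Cyp2d gene per kilobase, had 856 and 671 CPM in WT and 684 and 634 CPM in DDI2-KO, with overlapping groups. Cyp2d10, in the same cluster, had 489 and 368 CPM in WT and 415 and 445 CPM in DDI2-KO, a log2 change of 0.01 (SE 0.20) whose sign turned with 4 of the alternatives that kept the 4 libraries.

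The windows of Cyp2d9 and Cyp2d10 are printed for the same reason as those of the Cyp2a pair. The Cyp2d9 window is chr15:82452127-82452376 on the plus strand and the Cyp2d10 window is chr15:82407195-82407444 on the minus strand, both from RefSeq on GRCm38.p6. Capitals mark the TATA box letters TATAAA on the opposite strand, read here as TTTATA. Along the gene, the last capitals and the letters after them read TATAagg in both windows. The match therefore need not mean an inverted TATA box.
Cyp2d9: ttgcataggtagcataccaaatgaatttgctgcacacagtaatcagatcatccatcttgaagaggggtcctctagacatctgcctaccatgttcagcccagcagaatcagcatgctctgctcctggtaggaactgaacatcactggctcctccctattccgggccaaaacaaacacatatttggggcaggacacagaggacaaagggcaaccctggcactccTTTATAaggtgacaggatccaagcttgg
Cyp2d10: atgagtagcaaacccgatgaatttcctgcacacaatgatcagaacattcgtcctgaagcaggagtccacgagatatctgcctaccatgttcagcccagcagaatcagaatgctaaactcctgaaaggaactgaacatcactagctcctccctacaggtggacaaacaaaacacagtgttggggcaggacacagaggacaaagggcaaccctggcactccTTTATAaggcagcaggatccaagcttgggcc
Of 246 aligned bases, 209, or 85.0%, were identical, and the capitals begin 28 bases before the RefSeq start of Cyp2d9 and 31 bases before that of Cyp2d10. The RefSeq start of Cyp2d9 lies inside the GENCODE gene given above, whose span begins further upstream.

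Cyp2e1, the most abundant of the 58 genes, had 8927 and 5367 CPM in WT and 8090.3 and 7071 CPM in DDI2-KO. Its DDI2-KO libraries lay between the WT libraries, and the log2 change was 0.08 (SE 0.25, edgeR adjusted p = 0.871), a sign that turned with offsets for GC content and length and without WT replicate 2 or DDI2-KO replicate 1. Cyp2e1 is a pericentral gene, and the summed level of the 14 listed pericentral genes outside the family moved with it, at 6611 and 3983 CPM in WT and 6192 and 5262 CPM in DDI2-KO. None of these 14 genes was called, and the part of lobule position in the Cyp2e1 values was not tested.

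The other single or small subfamilies of family 2 did not pass the test. Cyp2f2, which activates naphthalene, had 851 and 936 CPM in WT and 714 and 621 CPM in DDI2-KO, a log2 change of -0.42 (SE 0.18, adjusted p = 0.203). Cyp2j5, an arachidonic acid epoxygenase, had 951 and 829.9 CPM in WT and 729 and 594 CPM in DDI2-KO, a log2 change of -0.43 (SE 0.19, adjusted p = 0.216). In both, each DDI2-KO library was below each WT library.

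Among these single or small subfamilies, larger changes without a call were seen at low levels. Elsewhere in the family such changes were also seen at high levels, as for Cyp2c50 and Cyp4a14. Cyp2j9 had 9.40 and 12.5 CPM in WT and 3.17 and 6.96 CPM in DDI2-KO, a log2 change of -1.12 (SE 0.36, adjusted p = 0.129), and it was called without DDI2-KO replicate 2 (adjusted p = 0.0394) and by DESeq2 (0.0467). Cyp2g1, known from the olfactory mucosa, had 22.6 and 15.8 CPM in WT and 12.2 and 8.22 CPM in DDI2-KO, a log2 change of -0.91 (SE 0.26, adjusted p = 0.0916). Cyp2r1, a vitamin D hydroxylase, had 14.9 and 13.8 CPM in WT and 20.1 and 25.6 CPM in DDI2-KO, a log2 change of 0.67 (SE 0.19, adjusted p = 0.0869). The groups did not overlap for these 3 genes. Cyp2g1 was called in 4 of the 12 other fits, among them DESeq2 (adjusted p = 0.0367), and Cyp2r1 in 3, among them the fit with offsets for GC content and length (0.0218).

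Cyp2u1, a fatty acid hydroxylase, had 3.90 and 15.3 CPM in WT and 9.43 and 13.3 CPM in DDI2-KO, with overlapping groups. Cyp2s1 stayed under 1 CPM in every library, with 0.870 CPM at most.

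The 8 tested Cyp3a genes, which hydroxylate steroids and many drugs and lie on chromosome 5, did not pass the test. Cyp3a11, the most abundant, had 3942 and 4929 CPM in WT and 3685 and 3658 CPM in DDI2-KO, so both DDI2-KO libraries were below both WT libraries. Its log2 change was -0.27 (SE 0.18, edgeR adjusted p = 0.400). Cyp3a25 had 477 and 575 CPM in WT and 257 and 345 CPM in DDI2-KO, a log2 change of -0.80 (SE 0.21, adjusted p = 0.0764). Cyp3a59 had 41.4 and 69.0 CPM in WT and 29.0 and 27.6 CPM in DDI2-KO, a log2 change of -0.96 (SE 0.24, adjusted p = 0.0745). DESeq2 called both of these genes lower (adjusted p = 0.00817 and 0.00936).

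The female-biased Cyp3a genes differed far more between the WT libraries than between the genotypes. Cyp3a16 was counted with 6644 and 31 reads in WT against 3719 and 4598 in DDI2-KO. Cyp3a41a was counted with 9117 and 285 reads in WT against 4680 and 2656 in DDI2-KO, and Cyp3a41b was counted with 347 and 0 reads in WT against 568 and 315 in DDI2-KO. For all 3 genes, WT replicate 2 stood apart from the other libraries, and the log2 changes of Cyp3a16 (0.79, SE 2.52), Cyp3a41a (0.08, SE 1.92) and Cyp3a41b (1.78, SE 2.08, adjusted p = 0.695) had errors as large as themselves or larger. Cyp3a41a and Cyp3a41b are near copies of each other, with 98.6% and 93.5% of their 50-base stretches shared, so the split of reads between them is uncertain.

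Cyp3a44 followed another pattern. It was counted with 7986 and 283 reads in WT against 548 and 703 in DDI2-KO, so that WT replicate 1 alone was high and WT replicate 2 was the lowest. With all libraries its log2 change was -2.25 (SE 1.95, edgeR adjusted p = 0.598). Without WT replicate 2 it was -3.20 (adjusted p = 0.000713), and without WT replicate 1 it was 1.50 (adjusted p = 0.0727). Without WT replicate 1, Cyp3a16 and Cyp3a41a were called higher in DDI2-KO, by 7.41 and 4.01 on the log2 scale (adjusted p = 0.000204 and 0.00140), and without WT replicate 2 they were at -0.20 and -0.87. The direction of these genes therefore depended on which WT library was kept.

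The WT libraries differed from each other in the P450 genes more often than in other genes. The 2 WT libraries were over 2-fold apart for 12 of the 58 P450 genes, or 20.7%, but for 1.93% of all tested genes, with 0.5 CPM added to each level. The 2 DDI2-KO libraries were over 2-fold apart for 2 P450 genes, or 3.45%, against 1.86% of all tested genes. The median absolute log2 ratio between replicates was 0.50 for P450 genes and 0.17 for all tested genes in WT, and 0.25 and 0.24 in DDI2-KO. Of the 12 genes, WT replicate 1 was the higher library for Cyp2c37, Cyp2c69, Cyp2d40, Cyp3a16, Cyp3a41a, Cyp3a41b, Cyp3a44, Cyp4a10 and Cyp4a14, and WT replicate 2 was the higher for Cyp2b10, Cyp2c55 and Cyp2u1.

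**Figure D4:**
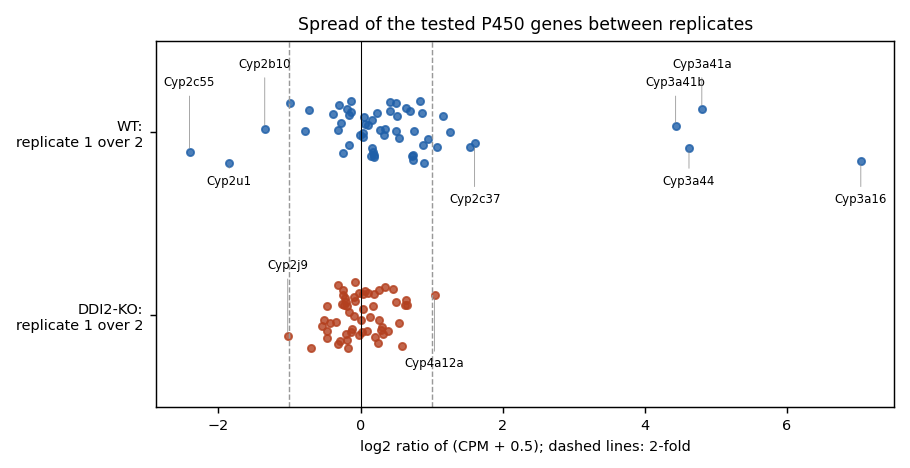
Log2 ratio of replicate 1 over replicate 2 (horizontal axis, CPM plus 0.5) for each of the 58 tested P450 genes, in WT (blue, upper row) and DDI2-KO (red, lower row), with dashed lines at 2-fold and vertical scatter only to separate points. In WT 12 genes lie beyond the lines, with 4 Cyp3a genes far to the right, against 2 genes in DDI2-KO.

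The Cyp4a genes hydroxylate fatty acids and are classical targets of PPARα, and of the 5 tested, 1 fell and 4 did not pass the test. Cyp4a32 (ENSMUSG00000063929, chr4:115600969-115621602, plus strand) was counted with 542 and 368 reads in WT against 158 and 142 in DDI2-KO. After scaling this was 16.1 and 11.9 CPM in WT and 6.10 and 6.18 CPM in DDI2-KO, without overlap. The log2 change was -1.19 (SE 0.22, edgeR adjusted p = 0.0406), or 2.28-fold lower. The call was lost in 3 of the 12 other fits, with adjusted p up to 0.0591, and without any 1 of WT replicate 1 (0.195), WT replicate 2 (0.0551), DDI2-KO replicate 1 (0.0772) or DDI2-KO replicate 2 (0.0654), and 46.8% of its 50-base stretches are shared, mostly with Cyp4a10.

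Cyp4a14 was counted with 27027 and 11050 reads in WT against 4239 and 5483 in DDI2-KO, or 804 and 358 CPM against 164 and 239 CPM. Both DDI2-KO libraries were lower than both WT libraries, which were themselves over 2-fold apart. Its log2 change was -1.53 (SE 0.41, edgeR adjusted p = 0.105), and it was called by DESeq2 (adjusted p = 0.000301) and without WT replicate 2 (0.0120). Cyp4a10, the first Cyp4a gene by the mean level per kilobase, led in both DDI2-KO libraries, while Cyp4a14 led in both WT libraries with 322 and 143 CPM per kb against 317 and 133. Cyp4a10 had 669.6 and 280.5 CPM in WT and 381 and 437 CPM in DDI2-KO, with both DDI2-KO libraries between the WT libraries.

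The other family 4 genes did not pass the test. Cyp4f14, a leukotriene hydroxylase, had 349.7 and 309.7 CPM in WT and 327 and 306 CPM in DDI2-KO. Cyp4b1 had 31.7 and 28.4 CPM in WT and 32.1 and 34.1 CPM in DDI2-KO, a log2 change of 0.14 (SE 0.16) whose sign turned with offsets for GC content and length. Cyp4v3, a fatty acid hydroxylase whose human counterpart is mutated in a retinal dystrophy, had 268 and 171 CPM in WT and 254 and 291 CPM in DDI2-KO, with overlapping groups.

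The 9 members with reads that were not tested were Cyp2ab1, Cyp2d11, Cyp2d12, Cyp2j8, Cyp3a57, Cyp4a12b, Cyp4f37, Cyp4f39 and Cyp4f40. The 14 without a read were Cyp2b19, Cyp2b23, Cyp2c65, Cyp2c66, Cyp2d34, Cyp2j7, Cyp2j11, Cyp2j12, Cyp2j13, Cyp2t4, Cyp2w1, Cyp4a29, Cyp4a30b and Cyp4x1. A count of 0 allows up to 3 reads, or 0.0892 to 0.131 CPM after TMM scaling, which covers counting error only.

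Ratios within a library do not depend on its depth or scaling, and they were formed between genes of a cluster or subfamily after the values were seen, as a description. Cyp2d9 had 11.8 and 8.71 reads per 100 reads of Cyp2d10 in WT and 64.7 and 59.5 in DDI2-KO. Cyp2a22 had 11.4 and 7.17 reads per 100 reads of Cyp2a12 in WT and 23.2 and 22.3 in DDI2-KO. The ratios of these 2 pairs did not overlap between the genotypes.

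In the other direction, Cyp2c54 had 44.1 and 37.7 reads per 100 reads of Cyp2c50 in WT and 17.1 and 11.7 in DDI2-KO. Cyp4a32 had 72.8 and 61.4 reads per 100 reads of Cyp4a31 in WT and 35.6 and 32.1 in DDI2-KO. Cyp4a14 had 120.1 and 128 reads per 100 reads of Cyp4a10 in WT and 43.0 and 54.6 in DDI2-KO. The WT libraries, over 2-fold apart in each of Cyp4a14 and Cyp4a10, were close to each other in this ratio.

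The pair of Cyp3a44 and Cyp3a41a showed the same closeness of the WT libraries. Cyp3a44 had 87.6 and 99.3 reads per 100 reads of Cyp3a41a in WT and 11.7 and 26.5 in DDI2-KO, although each gene by itself was far apart between the WT libraries. In WT replicate 2 this ratio rests on 283 and 285 reads, and 26.5% of the 50-base stretches of Cyp3a44 are shared, mostly with Cyp3a41a. The closeness did not hold against Cyp3a16. Cyp3a44 had 120 and 913 reads per 100 reads of Cyp3a16 in WT and 14.7 and 15.3 in DDI2-KO. Only 31 reads of Cyp3a16 were counted in WT replicate 2. Of 14 ratios formed, 1 overlapped between the genotypes, that of Cyp3a41a per 100 reads of Cyp3a11. It was 6.88 and 0.187 in WT and 4.91 and 3.16 in DDI2-KO. Most pairs set a gene whose groups did not overlap over another gene of its subfamily, after the values were seen. The number of ratios without overlap was thus largely set by that choice and says nothing about the family.

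**Figure D5:**
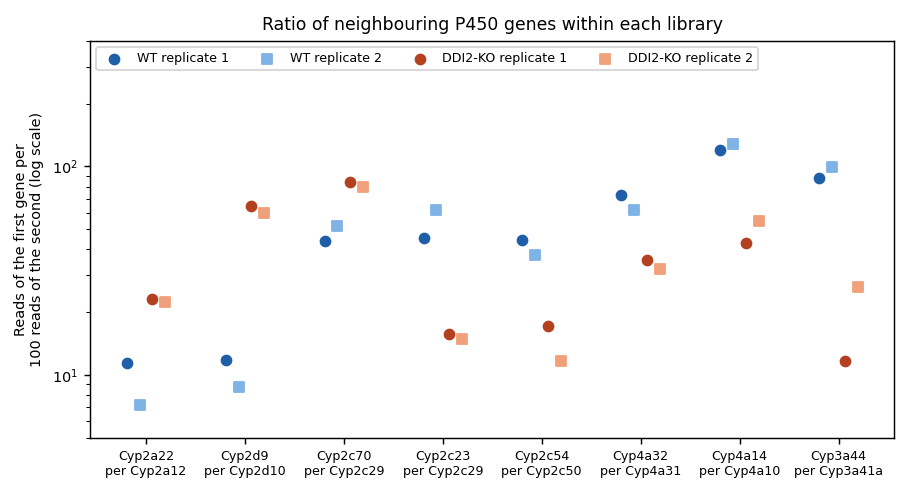
Reads of 1 gene per 100 reads of another gene of its subfamily (log axis) for 8 pairs in each of the 4 libraries, blue for WT and red or orange for DDI2-KO. The genotypes do not overlap in any of the 8 pairs, which were chosen from 14 after their values were seen, with Cyp2d9 per Cyp2d10 at 11.8 and 8.71 in WT and 64.7 and 59.5 in DDI2-KO.

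Sequences near the starts were compared as a description. RefSeq windows of 250 bases before the start were found for 66 of the 81 members and set beside all 27025 windows of that length, with both strands searched. The TATA box letters TATAAA occurred in 39.4% of the P450 windows and 12.97% of all, the HNF4A letters CAAAGTCC in 21.2% and 1.22%, and the C/EBP letters TTGCNNAA in 21.2% and 9.55%. The core letters of the antioxidant response element bound by NRF1 and NRF2, TGACNNNGC, occurred in 1 P450 window, that of Cyp4f18, or 1.52%, against 10.1% of all. The aryl hydrocarbon receptor core GCGTG occurred in 19.7% against 28.2%, the STAT5 letters TTCNNNGAA in 6.06% against 7.18%, and the D-box letters TTATGTAA in 0% against 0.862%. Each gene of a cluster was counted separately, although windows of neighbours can be nearly alike, so these shares do not rest on independent windows. The set of all windows was not limited to genes expressed in liver. Of the called genes, Cyp2a22, Cyp2d9 and Cyp4a32 were among the 66, and no window was found for Cyp2c23 and Cyp2c54.

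None of the 6 listed electron-transfer partners was called. Por, the reductase that serves all of these enzymes, had 283 and 318 CPM in WT and 189.6 and 107 CPM in DDI2-KO, so both DDI2-KO libraries were below both WT libraries. Its log2 change was -1.02 (SE 0.27, edgeR adjusted p = 0.0833), which passed in 5 of the 12 other fits and without DDI2-KO replicate 1 (adjusted p = 0.0471). The other 5 partners had log2 changes up to 0.59. Of the 12 heme synthesis and breakdown genes none was called, and Alas1, the first enzyme of heme synthesis, had 76.7 and 161 CPM in WT and 199 and 93.0 CPM in DDI2-KO, with overlapping groups.

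None of the 28 listed regulators of P450 genes was called, and their median log2 change was 0.06. Nr1i3, which encodes the receptor CAR, had 239 and 187 CPM in WT and 134 and 159.8 CPM in DDI2-KO, a log2 change of -0.54 (SE 0.20, adjusted p = 0.152). The log2 changes were 0.19 for Nr1i2, which encodes PXR, 0.43 for Ahr, 0.28 for Ppara and 0.23 for Hnf4a, with adjusted p from 0.362 to 0.550. For Ahr the sign turned without DDI2-KO replicate 2.

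Targets of these regulators outside the family were counted beside the 2.53% of all tested genes called, and with lists this small 1 call says nothing about a list. Of 6 tested aryl hydrocarbon receptor targets none was called. Of 16 CAR and PXR targets 1 rose, Gadd45b, a stress-response gene, with a log2 change of 1.82 (SE 0.31, edgeR adjusted p = 0.0361), and the median was 0.01. This call was lost with limma-voom (adjusted p = 0.0504) and when any 1 library was left out, with adjusted p from 0.0577 to 0.128, while Pdk4 below was called each time. Of 15 tested PPARα targets 1 rose, Pdk4, a kinase that slows pyruvate oxidation, with 6.78 and 6.93 CPM in WT and 35.5 and 32.6 CPM in DDI2-KO (log2 change 2.31, SE 0.17, edgeR adjusted p = 0.00911). The median of the PPARα targets was 0.33. Both DDI2-KO libraries lay above both WT libraries for 7 of the 15 and below for 0, against 28.0% and 27.7% of all tested genes. The 5 tested Cyp4a genes had a median of -0.22, which is the value of Cyp4a10, whose groups overlapped. Of these 5 genes, 0 lay above and 3 below. The part of PPARα in these values was not tested. None of the 14 pericentral and 14 periportal genes outside the family was called, with medians of 0.05 and -0.20.

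Lists of sex-biased genes were counted beside the 1.33% of all tested genes called higher and the 1.20% called lower, and they too are small. Of 5 tested male-biased P450 genes 1 rose, Cyp2d9, and of 16 female-biased P450 genes none was called, with medians of 0.25 and -0.06. Outside the family, 2 of 14 tested female-biased genes rose, the sulfotransferases Sult2a2 (log2 change 1.01, SE 0.19, adjusted p = 0.0431) and Sult2a3 (adjusted p = 0.0309), which was counted with 3 and 0 reads in WT against 43 and 26 in DDI2-KO. Of 15 tested male-biased genes outside the family 2 fell, the transporter Slco1a1 (log2 change -1.55, SE 0.20, adjusted p = 0.0186) and the protease inhibitor Serpina1e (-3.20, SE 0.45, adjusted p = 0.0404). Of these calls, Sult2a2 was lost in 3 of the 12 other fits (adjusted p up to 0.0570) and without any 1 library (from 0.0561 to 0.208), Sult2a3 without WT replicate 2 (0.0599) or DDI2-KO replicate 1 (0.0728), Slco1a1 without DDI2-KO replicate 1 (0.0577), and Serpina1e in 3 of the 12 other fits (up to 0.132) and without DDI2-KO replicate 1 (0.0967) or 2 (0.109). The rise of the male-biased Cyp2d9 stood beside these 2 called falls, but the male-biased list outside the family had no common direction. Both DDI2-KO libraries lay above both WT libraries for 4 of its genes and below for 4, with a median log2 change of -0.07. In the female-biased list outside the family, 8 genes lay above and 1 below, with a median of 0.87. For all tested genes these shares were 28.0% above and 27.7% below. The part of sex-related regulation was not tested.

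Hepatocyte markers were abundant in every library, with a summed level from 148563 to 182922 CPM over the listed genes and no call among the 9 tested, so the tissue label held. Of 8 sinusoidal endothelial markers 1 fell, Stab2 (log2 change -1.10, SE 0.17, adjusted p = 0.0288), which was lost without WT replicate 1 (0.125), WT replicate 2 (0.0505) or DDI2-KO replicate 1 (0.0565), and none of 6 cholangiocyte, 8 Kupffer cell, 8 stellate cell and 8 lymphocyte markers was called. Of 5 tested erythroid markers 1 fell, Hba-a1 (log2 change -1.94, SE 0.30, adjusted p = 0.0338), a call lost without DDI2-KO replicate 1 (0.171) or 2 (0.185), and the summed level of this list was 109.6 and 210.4 CPM in WT and 79.4 and 68.3 CPM in DDI2-KO. Of all tested genes 1.20% were called lower, and with marker lists this small 1 call says nothing about a list. The part of blood content in the P450 values was not tested.

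P450 genes outside families 1 to 4 were fewer. Of 18 such genes 10 were tested, 1 fell and none rose, beside 1.20% of all tested genes called lower and 1.33% called higher. With so few genes, 1 call says nothing about the group. The gene that fell was Cyp17a1, a steroid hydroxylase, with 144 and 92.8 CPM in WT and 47.0 and 36.5 CPM in DDI2-KO (log2 change -1.50, SE 0.24, edgeR adjusted p = 0.0338), a call lost without WT replicate 1 (0.0807), DDI2-KO replicate 1 (0.0817) or DDI2-KO replicate 2 (0.0995).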

How the data were processed

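Liver mRNA libraries of 2 WT and 2 DDI2-KO mice were analysed from the raw counts that the authors deposited, whole numbers of reads on each Ensembl gene, not normalized. The submitters' processing notes name cutadapt 1.8, STAR 2.5.2b, HTSeq 0.6.1 and the build GRCm38, while the annotation release and the strand setting of the counting are not given in the sources used here. The summary lines of the counting program were not used as genes and held from 35.3% to 42.3% of all reads, mostly reads that matched several places, which affects genes with close copies. Symbols, coordinates and transcripts were from GENCODE M21 (GRCm38), which held 48349 of the 48709 identifiers.

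The genotypes were compared with edgeR 4.0.16 (R 4.3.3) by its quasi-likelihood F test, after filterByExpr and TMM scaling and with robust dispersions, and p was adjusted by Benjamini-Hochberg over 13699 genes. A call is an adjusted p under 0.05, and SE values were obtained as the absolute log2 change over the root of F. A moderated limma test, the kind the study names, was run as limma-voom and limma-trend in a later version (limma 3.58.1). These fits, DESeq2 1.42.0, other scalings and filters, a replicate block, offsets for GC content and length, and leaving out each library were alternatives. The tests were first tested on simulated data. Promoter windows were aligned with Biopython 1.88. Members, lists and the rule for named genes were chosen with earlier results of these data known. Replicates are 2 biological replicates per group as the study gives them, their numbers state no pairing, and the libraries of a group were distinct (chi-square over degrees of freedom of 70.6 in WT and 36.1 in DDI2-KO, where sampling alone gives about 1). The depth was 22501208 to 34109018 reads on genes, so that precision was set mainly by having 2 mice per group. Treated mice and cell lines were not analysed here.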

Additional observations from a re-analysis of the deposited data

How the results depend on the processing

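The numbers of P450 genes called higher and lower were 2 and 3, of 346 calls over all genes. Upper-quartile factors gave 1 higher, DESeq2 9 lower with 932 calls over all genes, limma-voom 1 higher with 136, limma-trend 1 higher with 139, no filter on low counts 4 higher and 8 lower with 1544, a mean of at least 1 CPM 1 higher, no robust estimation 1 higher with 152, offsets for GC content and length 4 higher with 842, and these offsets with the replicate block 4 higher and 5 lower with 504. The replicate block alone gave 3 higher and 8 lower, with 1108 calls over all genes. The difference between replicates in WT and that in DDI2-KO were hardly correlated over genes (0.04). With 1 such difference per genotype, this cannot show whether the mice were paired. Leaving out each library gave 0 to 5 higher, 1 to 5 lower and 93 to 358 calls over all genes. Of all calls, 52.6% were higher, against 39.7% with upper-quartile factors and 60.8% with library totals only. Signs turned with the offsets for Cyp2e1 (-0.0582, and -0.0181 with the block) and Cyp4b1 (-0.0229 and -0.0225), and for Cyp2d10 with the offsets (-0.107, and -0.0975 with the block), upper-quartile factors (-0.0466) and a mean of at least 1 CPM (-0.0126). When each library was left out, log2 fold changes ran from -0.13 to 0.82 for Ahr, -0.36 to 0.93 for Alas1, -0.24 to 0.75 for Cyp2a4, -0.0294 to 0.52 for Cyp2b9, -0.79 to 0.75 for Cyp2c69, -0.24 to 0.50 for Cyp2e1, -0.97 to 0.34 for Cyp2s1, -0.44 to 1.54 for Cyp2u1, -0.19 to 0.23 for Cyp2d10, -0.20 to 7.41 for Cyp3a16, -0.87 to 4.01 for Cyp3a41a, -3.20 to 1.50 for Cyp3a44, -0.71 to 0.54 for Cyp4a10 and -0.14 to 0.0305 for Cyp4f14. The causes were not tested. A fit without 1 library assumes that the lone library of its group varies like the other group.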
